A study of Homo sapiens with 6 samples.

Results

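Ephrins are cell-surface ligands, and the Eph receptors that bind them form a large family of receptor tyrosine kinases. Ephrin-A ligands are held on the membrane by a lipid anchor and mainly bind EphA receptors, whereas ephrin-B ligands span the membrane and mainly bind EphB receptors. Contact between neighbouring cells activates the receptor (forward signalling) and, for many ligands, also the ligand-bearing cell (reverse signalling), and in epithelia and carcinomas the family is known for controlling adhesion, repulsion and migration. The genes described here were the rows of the count table for 10 named members, namely the A ligands EFNA1, EFNA3, EFNA4 and EFNA5, the B ligands EFNB1 and EFNB2, the A receptors EPHA2 and EPHA4, and the B receptors EPHB2 and EPHB4. All 10 were among the 21776 genes of the table and among the 14255 that passed the filter on low counts.

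RNA sequencing was performed on an unmodified human oral squamous cell carcinoma line, labelled SCC25, after 12 h under hypoxia or normoxia, with 3 libraries per condition. Hypoxia was a gas mixture of 1% O2 with 5% CO2 and nitrogen, and the normoxic cells were kept in air with 5% CO2. The labels named SCC25 for every library, whereas a legend of the study named SCC9 for its hypoxia expression data, so the line behind the values is given as labelled. The hypoxic libraries held 30186813, 36076088 and 32272716 counts, and the normoxic libraries held 37278703, 29637189 and 29981208.

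The labelled conditions and cell type were first checked against known genes. CA9 and NDRG1, both well-known hypoxia-inducible genes, were higher in all 3 hypoxic libraries than in any normoxic one, with 7993 to 10312 against 781 to 2002 counts for CA9 and 275026 to 390979 against 4017 to 12097 counts for NDRG1. Normoxia replicate 3 held the highest normoxic count of both, and its summed level of the pair was 477 CPM (counts scaled to a common library total) beside 196 and 168 CPM in normoxia replicates 1 and 2. The values of the ephrin and Eph genes without that library are therefore given below. Of 8 squamous markers, KRT5, TP63, SFN and CDH1 each had at least 1499 counts in every library, KRT14 had 0 counts in 5 libraries and 1 count in normoxia replicate 2. Whether reads of KRT14 were lost in mapping or counting was not tested, so this does not show that the gene was silent. The markers moved both ways, with log2-fold changes of 1.35 for CDH1, 1.35 for DSG3 and 1.06 for KRT17, which rose, and of -0.18 for KRT5, -0.80 for SFN and -4.12 for KRT6A, which fell. The summed squamous level was 814, 795 and 815 CPM under hypoxia and 594, 601 and 651 CPM under normoxia, with CDH1 the most abundant gene under hypoxia and SFN under normoxia.

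Markers of other cell types were low. The 4 fibroblast markers summed to 21.2, 18.4 and 16.9 CPM under hypoxia against 3.95, 2.97 and 5.58 CPM under normoxia, nearly all from COL1A1, and COL3A1 had at most 2 counts in any library. The 3 endothelial markers summed to between 1.24 and 1.54 CPM under hypoxia and to between 0.30 and 0.74 CPM under normoxia, with CDH5 the most abundant gene. The leukocyte markers PTPRC and CD3E had at most 2 counts in any library, whereas CD68, which carcinoma cells can also express, held nearly all of the 27.3 to 34.2 CPM of that list. The fibroblast and endothelial sums moved with the hypoxia label, and their part in the results below was not tested. In bulk RNA, fewer cells that express a gene and less RNA per cell cannot be told apart.

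Hypoxia was compared with normoxia to ask which ephrin and Eph genes differed between the conditions. The A ligands rose, led by EFNA1 and EFNA3, while EPHA2, EPHB2 and EFNB2 fell. Of the 10 genes, 5 were higher and 3 were lower under hypoxia at an adjusted p under 0.05 (edgeR's quasi-likelihood test, Benjamini-Hochberg adjustment over all genes tested), and EPHA4 and EPHB4 did not pass. The response of the transcriptome was broad, since 77.8% of all genes tested passed the same threshold, 39.2% higher and 38.5% lower, so that the count of members called was close to the background. The CPM of the conditions did not overlap for 8 of the 10 members, against 80.5% of all genes tested. EFNA1 and EFNA3 had the largest changes of the members, and both rose by more than 2 on the log2 scale, as did 8.66% of all genes tested. The 10 members had a median log2-fold change of 0.34, and that of the whole tested set was 0.02. The median size of the change, without its sign, was 0.68 for the members and 0.63 for all genes tested.

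**Figure D1:**
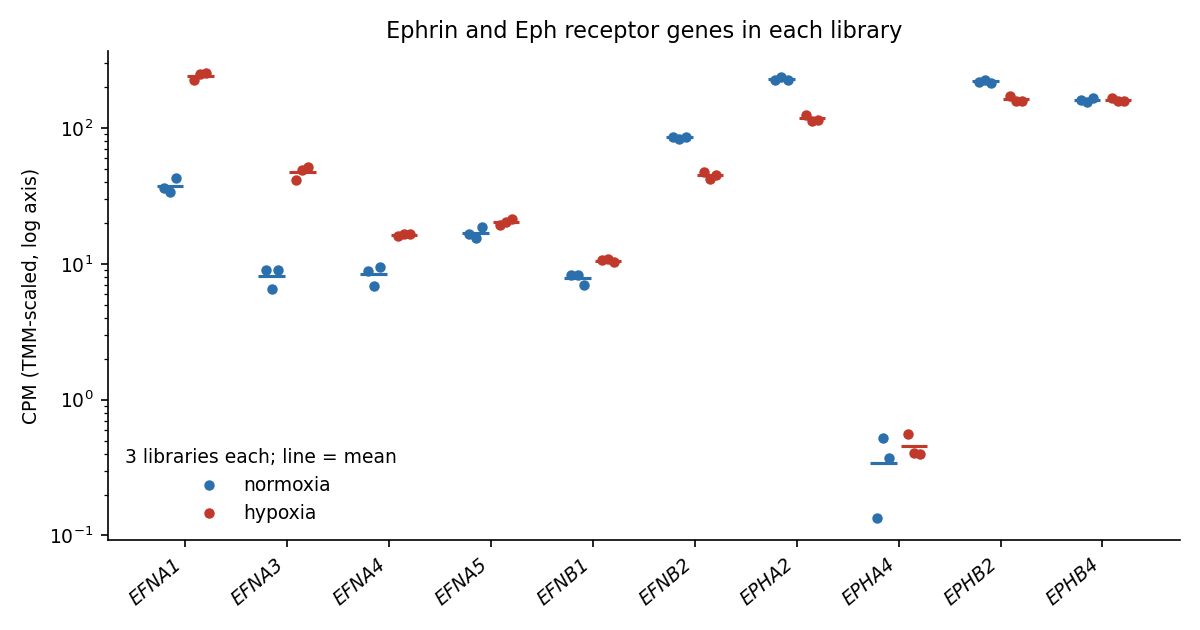
CPM (TMM-scaled, log axis) of the 10 ephrin and Eph receptor genes in each library, with normoxia in blue, hypoxia in red and a line at the mean of 3 libraries. The conditions are separated for every gene other than EPHA4 and EPHB4.

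Of the 4 A ligands among the members, EFNA4, EFNA3 and EFNA1 follow each other among the counted genes of chromosome 1, and EFNA5 lies on chromosome 5. The promoter windows of the first 3, together with those of the receptor EPHA2 and the ligand EFNB2, the 2 members that fell most, are shown because the first 3 genes moved in one direction and the last 2 in the other. Each window of 300 bases spans the start of the gene, with most of it upstream (RefSeq, GRCh38.p14), at chr1:155127626-155127925 (plus strand) for EFNA1, chr1:155078587-155078886 (plus strand) for EFNA3, chr1:155063490-155063789 (plus strand) for EFNA4, chr1:16156020-16156319 (minus strand) for EPHA2 and chr13:106535613-106535912 (minus strand) for EFNB2. Capitals mark matches to ACGTG or GCGTG, the core of the element bound by hypoxia-inducible factors, on either strand (CACGT or CACGC on the other strand).
EFNA1: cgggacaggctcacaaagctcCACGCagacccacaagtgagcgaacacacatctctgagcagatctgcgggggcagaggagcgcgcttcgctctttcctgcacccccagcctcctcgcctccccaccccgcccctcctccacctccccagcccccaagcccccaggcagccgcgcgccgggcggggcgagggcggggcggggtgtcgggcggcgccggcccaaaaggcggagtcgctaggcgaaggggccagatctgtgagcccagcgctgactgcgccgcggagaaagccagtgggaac
EFNA3: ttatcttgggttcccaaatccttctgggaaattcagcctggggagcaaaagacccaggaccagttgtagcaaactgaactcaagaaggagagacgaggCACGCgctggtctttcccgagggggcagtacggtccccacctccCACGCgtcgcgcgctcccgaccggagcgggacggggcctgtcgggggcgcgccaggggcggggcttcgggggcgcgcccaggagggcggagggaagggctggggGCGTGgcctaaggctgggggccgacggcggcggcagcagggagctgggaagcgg
EFNA4: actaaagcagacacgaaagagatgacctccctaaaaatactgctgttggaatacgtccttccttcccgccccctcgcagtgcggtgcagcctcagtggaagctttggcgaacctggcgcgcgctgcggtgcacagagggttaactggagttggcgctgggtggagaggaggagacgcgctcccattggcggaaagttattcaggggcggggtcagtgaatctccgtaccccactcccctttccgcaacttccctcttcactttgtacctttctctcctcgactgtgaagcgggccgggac
EPHA2: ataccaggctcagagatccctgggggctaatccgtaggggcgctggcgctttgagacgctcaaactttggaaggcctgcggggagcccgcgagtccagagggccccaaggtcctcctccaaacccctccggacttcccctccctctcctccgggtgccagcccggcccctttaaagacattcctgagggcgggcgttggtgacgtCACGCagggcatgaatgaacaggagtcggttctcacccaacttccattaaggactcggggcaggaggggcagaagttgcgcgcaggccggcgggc
EFNB2: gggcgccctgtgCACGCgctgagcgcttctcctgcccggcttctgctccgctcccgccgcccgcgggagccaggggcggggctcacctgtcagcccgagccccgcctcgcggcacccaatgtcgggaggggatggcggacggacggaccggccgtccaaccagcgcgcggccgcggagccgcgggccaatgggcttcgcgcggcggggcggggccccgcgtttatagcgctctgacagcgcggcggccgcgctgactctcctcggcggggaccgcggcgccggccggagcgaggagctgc
EFNA1 held 1 match, which started at position -229 from the gene's start, EFNA3 held 3 and EFNA4 held none, and all 3 genes rose. EPHA2 held 1 match, at position -45, and EFNB2 held 1 at position -238, and both genes fell. The 10 members had 12 windows, of which 11 (91.67%) held at least 1 match, against 48.45% of all 35116 windows and 60.01% of the 16083 windows of genes tested. The windows of EPHB2 overlap almost fully and hold the same match. Counted by gene, 9 of the 10 members held at least 1. The comparison takes no account of base composition. The letters are short and common, and a match is a description of the sequence only.

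EFNA1 (Entrez 1942), a ligand with high affinity for EPHA2, had the largest change of the 10 genes. Its level was 227, 249 and 255 CPM in the hypoxic libraries and 36.1, 34.0 and 42.9 CPM in the normoxic ones. Every hypoxic library lay far above every normoxic one. The mean was 244 ± 14.6 CPM (SD, n = 3) against 37.7 ± 4.62 CPM (SD, n = 3), a 6.47-fold difference with a log2-fold change of 2.69 (SE 0.08, edgeR adjusted p = 1.48e-14). EFNA1 ranked 661 of 14255 genes from the top by log2-fold change.

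EFNA3 (Entrez 1944), another lipid-anchored ligand of EphA receptors, followed closely. It was measured at 41.6, 48.9 and 52.1 CPM under hypoxia and at 8.95, 6.50 and 9.06 CPM under normoxia. The lowest hypoxic library was well above the highest normoxic one. Its log2-fold change was 2.53 (SE 0.11, edgeR adjusted p = 2.29e-12), a 5.79-fold difference and rank 759 of 14255. The log2 ratio of EFNA1 to EFNA3 was 2.36 ± 0.08 under hypoxia and 2.21 ± 0.19 under normoxia (SD, n = 3 per condition), a difference of 0.16 with overlapping libraries (two-sided exact permutation p = 0.3). With 3 against 3 libraries this exact test cannot go below p = 0.1, so it does not show that the responses were alike.

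EFNA4 (Entrez 1945) rose less. It had 16.0, 16.6 and 16.5 CPM under hypoxia against 8.87, 6.85 and 9.50 CPM under normoxia, with less spread among the hypoxic libraries (SD 0.33 CPM) than among the normoxic ones (SD 1.38 CPM). The groups did not overlap, and the log2-fold change was 0.96 (SE 0.12, edgeR adjusted p = 9.54e-07), a 1.94-fold difference. An annotated readthrough transcript that joins EFNA4 and EFNA3 shares 853 exon bases with EFNA3 and 189 with EFNA4 (GENCODE) and had no row of its own in the count table, so its reads cannot be told apart from those of the 2 genes.

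EFNA5 (Entrez 1946), known for guiding axons through EphA receptors, had the smallest change among the A ligands. Its levels of 19.3, 20.5 and 21.3 CPM under hypoxia were just above the 16.7, 15.6 and 18.7 CPM under normoxia. The log2-fold change was 0.26 (SE 0.09, edgeR adjusted p = 0.0171), a 1.20-fold difference. This call was lost without hypoxia replicate 3 (log2-fold change 0.22, edgeR adjusted p = 0.0771), without normoxia replicate 1 (0.23, adjusted p = 0.0665) and without normoxia replicate 2 (0.19, adjusted p = 0.0883).

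The fold changes of the A ligands were compared through their ratios within each library. The log2 ratio of EFNA1 to EFNA5 was 3.58 ± 0.02 under hypoxia and 1.14 ± 0.04 under normoxia (SD, n = 3 per condition), a difference of 2.44 with a two-sided exact permutation p = 0.1, the smallest that 3 against 3 libraries can give. The ratio of EFNA1 to EFNA4 was higher under hypoxia by 1.73 and that of EFNA3 to EFNA4 by 1.57 on the same scale. In all, 9 pairs within the 4 classes of ligands and receptors were compared. Apart from EFNA1 to EFNA3, the ratios of the other 8 pairs did not overlap between conditions. Each had an exact permutation p = 0.1 and a value of 0.113 after Benjamini-Hochberg adjustment over the 9 pairs. The pair of EPHA2 and EPHA4 rests on the low counts of EPHA4. The share of such pairs over all genes was not computed, and 80.5% of single genes tested did not overlap either. The count of pairs is therefore not read as a result about the members.

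The B ligands moved in opposite directions. EFNB1 (Entrez 1947), an X-linked ligand needed for craniofacial patterning, had 10.6, 10.8 and 10.3 CPM under hypoxia and 8.28, 8.25 and 7.03 CPM under normoxia. Each hypoxic library was above each normoxic one. Its log2-fold change was 0.43 (SE 0.12, edgeR adjusted p = 0.00301).

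EFNB2 (Entrez 1948), best known as the arterial partner of the venous receptor EPHB4, had 47.3, 42.3 and 45.4 CPM under hypoxia against 86.5, 83.3 and 86.7 CPM under normoxia. Replicates of each condition lay close together and the conditions were far apart. EFNB2 fell 1.90-fold, with a log2-fold change of -0.93 (SE 0.06, edgeR adjusted p = 1.84e-10). The log2 ratio of EFNB1 to EFNB2 was higher under hypoxia by 1.36. An antisense transcript annotated over EFNB2 shares 1313 of its exon bases, and whether the counting used the strand is not given in the sources used here.

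Among the receptors, EPHA2 (Entrez 1969), an epithelial receptor that is abundant in many carcinomas, fell most. It had 126, 114 and 115 CPM under hypoxia and 225, 238 and 225 CPM under normoxia. The highest hypoxic library was far below the lowest normoxic one. EPHA2 fell 1.94-fold, with a log2-fold change of -0.96 (SE 0.06, edgeR adjusted p = 5.14e-11). The antisense gene EPHA2-AS1 had 2.78 to 4.36 CPM under hypoxia and 3.44 to 3.95 CPM under normoxia and did not pass the test.

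EPHB2 (Entrez 2048), a receptor known for sorting cells in the intestinal crypt, had 172, 159 and 158 CPM under hypoxia against 219, 228 and 216 CPM under normoxia. All hypoxic libraries were lower, by a smaller margin than for EPHA2. The log2-fold change was -0.44 (SE 0.05, edgeR adjusted p = 7.57e-07), a 1.36-fold fall.

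EPHB4 (Entrez 2050), the main receptor of EFNB2, had 167, 160 and 158 CPM under hypoxia and 160, 156 and 168 CPM under normoxia. The ranges of the conditions overlapped. Its log2-fold change was 0.0046 with a 95% interval from -0.10 to 0.11 (edgeR adjusted p = 0.94), so any difference lay within that range. EPHA4 (Entrez 2043), a receptor that binds ligands of both classes, was near the limit of measurement with 13 to 17 counts under hypoxia and 5 to 15 under normoxia. Its log2-fold change of 0.44 had a 95% interval from -0.56 to 1.43 (edgeR adjusted p = 0.439), and a difference was not detectable at this depth. Without normoxia replicate 1, the library with 5 counts, it was -0.0019.

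Without normoxia replicate 3, the library with the higher CA9 and NDRG1, the log2-fold changes were 2.78 for EFNA1, 2.59 for EFNA3, 1.03 for EFNA4, 0.31 for EFNA5, 0.34 for EFNB1, -0.93 for EFNB2, -0.99 for EPHA2 and -0.47 for EPHB2. The same 5 genes were higher and the same 3 lower.

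**Figure D2:**
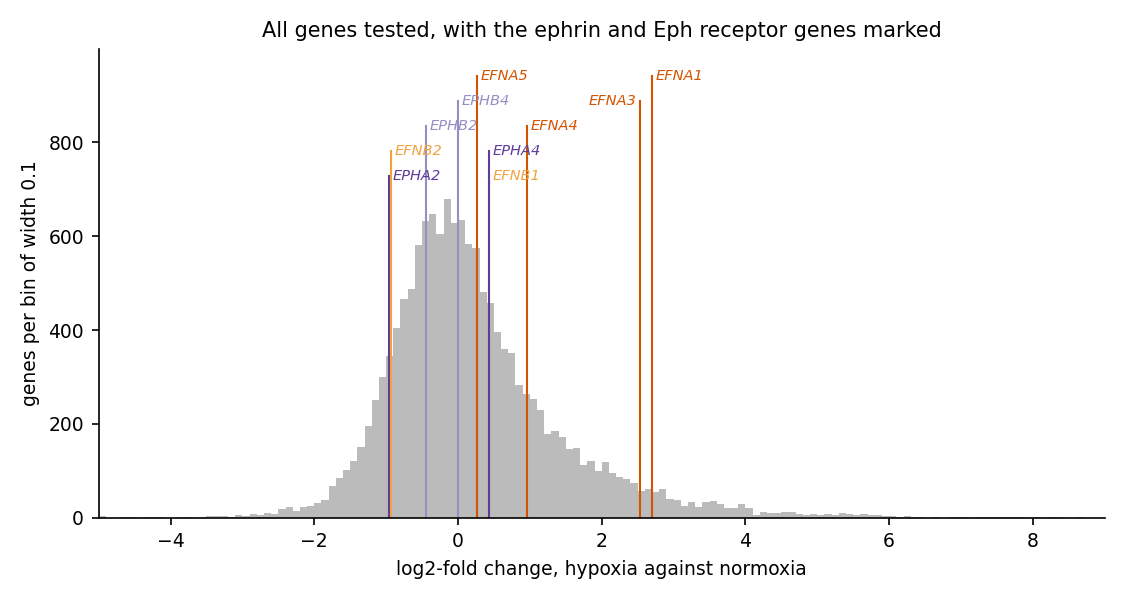
Histogram of the log2-fold change of hypoxia against normoxia over 14255 genes in bins of width 0.1, with a line for each ephrin and Eph receptor gene (orange for ligands, purple for receptors, darker for class A). Values beyond the axis are counted in the end bins. EFNA1 (2.69) and EFNA3 (2.53) lie in the upper tail and the other 8 genes between -0.96 and 0.96.

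Levels of different genes were compared on the deposited FPKM scale, which divides by gene length. The length behind the deposited FPKM of EFNB2 was 14471 bases, 2.88 times its 5019 merged exon bases in GENCODE, whereas for EFNA1 it was 1552 against 2539, so the order depends in part on these lengths. Under normoxia the receptors EPHA2 (52.8 ± 0.90 FPKM, SD, n = 3) and EPHB4 (36.0 ± 1.76) headed the order, followed by EFNA1 (23.9 ± 3.10) and EPHB2 (19.0 ± 0.32). EFNA4 (6.60 ± 1.17) and EFNB2 (5.81 ± 0.22) overlapped each other, and EFNA3, EFNB1, EFNA5 and EPHA4 followed at 4.43, 2.34, 1.90 and 0.051 FPKM. Under hypoxia EFNA1 moved to the top at 160 ± 9.97 FPKM, above EPHB4 at 37.3 ± 1.14 FPKM. EPHA2 (28.1 ± 1.49) and EFNA3 (26.6 ± 3.00) then overlapped, ahead of EPHB2 at 14.5 and EFNA4 at 13.3 FPKM. EFNB1 and EFNB2, at 3.25 and 3.16 FPKM, also overlapped, and EFNA5 and EPHA4 stayed last at 2.34 and 0.069 FPKM. With merged exon lengths, an alternative chosen after the values were seen, EPHA2 still headed the normoxic order (54.2) and EFNA1 the hypoxic one (97.5). EFNB2 moved up to 16.8 under normoxia, where it overlapped EPHB2 and EFNA1, and to 9.11 under hypoxia, above EFNB1 at 3.24 with no overlap. Under hypoxia EPHA2 (28.8) then stood above EPHB4 (25.5) with no overlap, and EFNA3 (25.3) overlapped EPHB4 in place of EPHA2. EPHB2 and EFNA4 also overlapped under hypoxia with these lengths, both at 13.2. EFNA5 stood above EFNB1 with no overlap, at 2.94 against 2.33 under normoxia and 3.62 against 3.24 under hypoxia.

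The FPKM ratio of ligand to receptor differed in opposite directions for EFNA1 with EPHA2 and for EFNB2 with EPHB4, 2 pairs chosen after the values were seen and given with no test. EFNA1 stood at 0.44, 0.39 and 0.52 times the level of EPHA2 in the normoxic libraries and at 4.97, 6.02 and 6.12 times in the hypoxic ones. EFNB2 stood at 0.164, 0.163 and 0.157 times the level of EPHB4 under normoxia and at 0.0862, 0.0807 and 0.0874 times under hypoxia. With merged exon lengths the first ratio was 0.234 to 0.312 under normoxia and 2.96 to 3.64 under hypoxia, and the second 0.663 to 0.692 and 0.340 to 0.368.

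Summed over every family gene in the table, the A ligands amounted to 36.8 ± 5.08 FPKM under normoxia and 202 ± 13.4 FPKM under hypoxia (SD, n = 3). EFNA1 made up 65.0 ± 2.18% of the normoxic and 79.1 ± 0.34% of the hypoxic sum. The A receptors went from 63.0 ± 0.79 to 38.3 ± 1.73 FPKM, of which EPHA2 held 83.9% and 73.3%, and the B receptors measured 55.8 ± 1.57 and 55.2 ± 1.63 FPKM. The B ligands went from 9.59 ± 0.50 to 13.7 ± 0.45 FPKM while the share of EFNB2 went from 60.7% to 23.0% and that of EFNB3 from 14.9% to 53.3%. This rests on the length used for EFNB2: with merged exon lengths the B ligand sum was 20.5 ± 0.90 under normoxia and 19.7 ± 0.27 under hypoxia, and EFNB2 kept the largest share, with 81.7% and 46.3% beside 6.96% and 37.2% for EFNB3. In CPM, which ignores length, the B ligands summed to 98.1 ± 2.44 under normoxia and 78.8 ± 1.91 under hypoxia. With merged exon lengths the A ligands still went from 28.3 to 140.0 and the A receptors from 61.5 to 36.2.

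**Figure D3:**
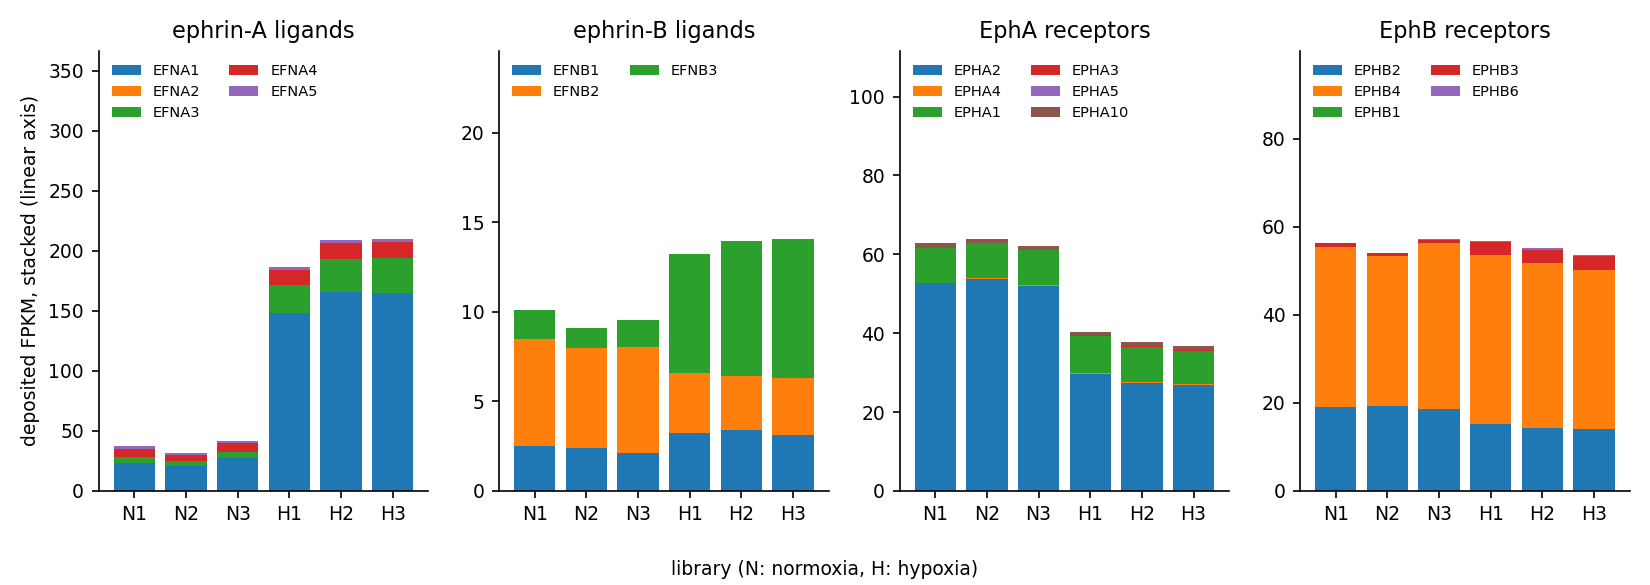
Deposited FPKM of the family genes, stacked by gene within each class on linear axes from 0, for the normoxic (N1 to N3) and hypoxic (H1 to H3) libraries. EFNA1 fills most of the ephrin-A bars under hypoxia, the ephrin-B bars change from mostly EFNB2 to mostly EFNB3 with the deposited lengths but not with merged exon lengths, and the EphB bars keep similar heights.

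Of 12 other ephrin and Eph genes, 9 had a row in the table and 6 were tested. EFNB3, EPHA3, EPHB3 and EPHB6 passed as higher, or 4 called of 6 beside 77.8% of all genes tested (39.2% higher). The call of EPHA3 is counted here but not read as a result, for the reason given below. EFNB3, a ligand known as a midline barrier for axons, had 647, 877 and 804 counts under hypoxia and 196, 108 and 149 under normoxia, with a log2-fold change of 2.30 (SE 0.12, edgeR adjusted p = 2.16e-11). EPHB3, a receptor of B ligands, had 368, 472 and 452 against 114, 70 and 97 counts and a log2-fold change of 2.13 (SE 0.14, edgeR adjusted p = 3.13e-10). Both were clearly separated between conditions. EPHB6, a receptor that lacks kinase activity, had 51, 78 and 32 counts under hypoxia and 23, 18 and 13 under normoxia (log2-fold change 1.49, SE 0.37, edgeR adjusted p = 0.00133).

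EPHA3, a receptor of A ligands, went from near absence to a low level. It had 24, 48 and 59 counts under hypoxia and 2, 1 and 2 under normoxia, within the at most 3 counts per library treated as unmeasured. Only a lower bound of 10.4 is therefore given for the ratio of scaled counts, the low end of its 95% counting interval. EPHA3 passed the filter on low counts through its hypoxic libraries alone, so its test is not read as a result. Its mean stayed at 0.200 FPKM under hypoxia, far below EPHA2. EFNA2, a ligand, did not pass the filter and had 7, 17 and 10 counts against 1, 0 and 1, the latter also within the counts treated as unmeasured. The low end of the 95% counting interval of its ratio was 4.15. EPHA1, an epithelial receptor, did not pass at a log2-fold change of -0.06 (95% interval -0.19 to 0.08), nor did EPHA10, a receptor without kinase activity, at -0.09 (95% interval -0.37 to 0.19). EPHA5 and EPHB1 had at most 3 counts in any library, and EPHA6, EPHA7 and EPHA8 were not analysed here.

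**Figure D4:**
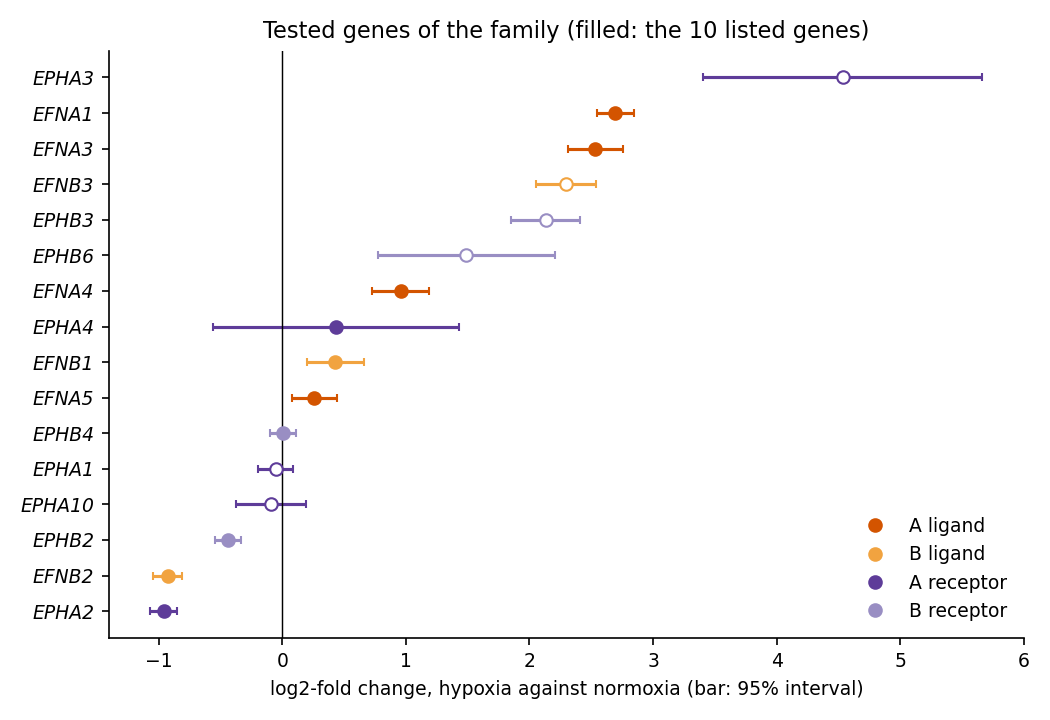
Log2-fold change of hypoxia against normoxia for the 16 tested family genes, with bars of the 95% interval, coloured by class and filled for the 10 listed genes. EPHA3 is drawn highest with a wide bar, but its normoxic counts of 2, 1 and 2 were treated as unmeasured, so its place is not a ranking. Among the other genes EFNA1 and EFNA3 are highest, and EFNB2 and EPHA2 are lowest.

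The genes beside the EFNA4, EFNA3 and EFNA1 cluster were read in RefSeq order, with 4 genes on each side. ADAM15, the direct neighbour on the EFNA4 side, had 225, 220 and 227 CPM under hypoxia and 226, 224 and 226 CPM under normoxia, with a log2-fold change of -0.01 (95% interval -0.11 to 0.09). On the EFNA1 side, SLC50A1, a sugar transporter gene, rose by 1.05 (SE 0.07, edgeR adjusted p = 1.56e-10) and DPM3, a subunit of dolichol-phosphate mannose synthase, by 1.31 (SE 0.12, edgeR adjusted p = 1.37e-08), both less than EFNA1. KRTCAP2 fell by 0.23 on the log2 scale, and TRIM46 rose by 1.55. Farther out on the EFNA4 side, DCST1-AS1 rose by 0.97, and DCST1 was too low to test. DCST2 had 60 to 111 counts under hypoxia and 2 to 11 under normoxia. It passed the filter on low counts through its hypoxic libraries alone, so its test is not read as a result.

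Genes that act with ephrins and Eph receptors inside the cell moved in both directions. Of 55 listed partners 52 were tested, and 25 rose, 15 fell and 12 did not pass, or 40 called beside the 77.8% of all genes tested. Their median log2-fold change was 0.10, and the median size of the change was 0.40, against 0.63 over all genes tested. Of genes with a deposited Gene Ontology term naming ephrin, 24 of 49 tested were higher and 14 lower. Without the family genes themselves 15 of 33 were higher and 11 lower, with a median log2-fold change of -0.0041. The lists overlap, since 20 of these 33 were also partners, so they are not separate evidence.

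The counts by role are to be read beside the same background, 77.8% of genes called with 39.2% higher and 38.5% lower. The largest role, whose genes are not described here, gave 6 higher, 5 lower and 9 not called of 20 tested. The 10 adaptors, which dock on phosphorylated receptors, split into 6 higher and 4 lower. GRB7, an SH2 adaptor, rose by 2.23 on the log2 scale (SE 0.12, edgeR adjusted p = 1.32e-11), from a mean of 13.1 to 61.4 CPM, and GRB10, of the same adaptor family, rose by 0.52 (SE 0.06, edgeR adjusted p = 6.05e-07). Of 7 cytoplasmic kinases 4 were higher and 2 lower. SRC, which Eph receptors recruit, rose by 0.87 (SE 0.06, edgeR adjusted p = 9.51e-10) and its relative FYN by 0.95 (SE 0.24, edgeR adjusted p = 0.00158) at a far lower level of 3.91 against 2.04 CPM.

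Of 5 phosphatase and ubiquitin ligase genes tested 3 were higher and 2 lower. PTPN1, a tyrosine phosphatase, fell by 0.76 (SE 0.05, edgeR adjusted p = 5.53e-10), and INPPL1, the lipid phosphatase SHIP2 that binds EPHA2, rose by 0.43 (SE 0.05, edgeR adjusted p = 1.13e-06).

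Proteases that cut ephrins or Eph receptors were also listed. RHBDL2, a rhomboid protease known to cleave EFNB3, rose by 1.66 (SE 0.18, edgeR adjusted p = 2.32e-07) and ADAM10, a sheddase of A ligands, by 0.35 (SE 0.05, edgeR adjusted p = 1.49e-05). MMP14, a membrane protease known to cut EPHA2, had 182 against 175 CPM and did not pass (edgeR adjusted p = 0.333).

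Genes of reverse signalling through B ligands gave 3 higher and 2 lower of 6 tested. RGS3, a regulator of G-protein signalling, rose by 1.14 (SE 0.11, edgeR adjusted p = 6.56e-08), DVL2, a Dishevelled protein, rose by 0.40, and PICK1, a PDZ protein, fell by 0.57. The calls of 2 further PDZ proteins were near the threshold: SDCBP rose by 0.12 (edgeR adjusted p = 0.0482) and was lost in 5 of 6 fits that left out a library, of which only the one without normoxia replicate 3 kept it, and GRIP2 fell by 1.01 (edgeR adjusted p = 0.0465) from 0.629 to 0.314 CPM and was lost in 5 of 6, all but the one without hypoxia replicate 3. PARD6A, a polarity protein, was at 5.01 against 5.95 CPM and did not pass, and GRIP1 was too low to test.

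**Figure D5:**
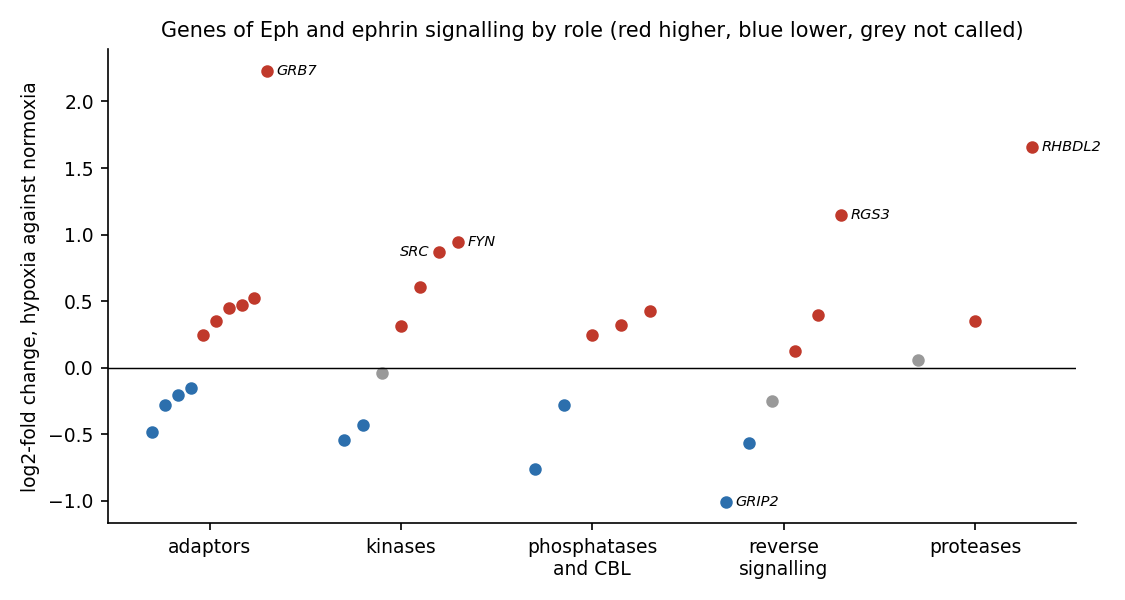
Log2-fold change of hypoxia against normoxia for tested partner genes of 5 roles, with genes called higher in red, lower in blue and those not called in grey. Of the genes drawn, GRB7 and RHBDL2 are the highest and GRIP2 the lowest, and each role holds genes on both sides of 0 except the proteases.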

How the data were processed

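Per the labels, RNA was extracted with a column kit and libraries were made with a SMARTER mRNA-Seq kit. The authors deposited whole-number counts per gene, not normalized, and FPKM, the counts divided by gene length and library total, for the same genes. The aligner, counter and use of strand are not given in the sources used here. The submitters' processing notes name GRCm38 and mm10, which are mouse builds, whereas symbols and Entrez numbers in the table are human, so the build of the counts was not settled, and coordinates refer to RefSeq windows only. Groups and replicate numbers came from the sample titles. Whether replicates were separate cultures is not stated, so p-values measure the spread between these libraries, which may be technical.

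Counts were analysed in R 4.3.3 with edgeR 4.0.16 (TMM, filterByExpr, glmQLFit, glmQLFTest, condition only), with Benjamini-Hochberg adjustment over 14255 genes and a threshold of 0.05. CPM used TMM-scaled totals. Pair ratios used log2 CPM with a prior count of 2 and exact permutation over libraries. At this depth a gene with at most 3 counts per library was treated as unmeasured, and counting intervals at 95% cover counting error only. The alternatives were DESeq2 1.42.0, its size factors in edgeR, other filters, a replicate block, each library left out, and limma 3.58.1 on log2(FPKM + 1) or log2(FPKM + 0.1). Per-length levels were also computed with merged exon lengths (GENCODE v29), chosen after seeing the data. The edgeR and limma steps were tested on simulated data. Members and lists were chosen with earlier results of these data known. All members and family genes were named, as were proteases, reverse-signalling genes and genes beside the cluster, and among adaptors, kinases and phosphatases the 2 largest changes among those called. Some partner genes, counted in the totals, are not reported here. EPHA10 and EFNB3 had no promoter window. A chi-square test of the counts told every pair of replicates apart (5.11 to 11.5 per gene). It sets libraries against counting error alone, so it cannot show whether they came from separate cultures.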

Additional observations from a re-analysis of the deposited data

How the results depend on the processing

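Over 14 alternatives, EFNA1, EFNA3, EFNA4, EFNB1, EFNB2, EPHA2 and EPHB2 kept their direction and their call in all, with ranges of 2.62 to 2.78, 2.35 to 2.61, 0.83 to 1.04, 0.34 to 0.51, -0.97 to -0.71, -1.01 to -0.88 and -0.49 to -0.36. EFNA5 ranged from 0.19 to 0.34 and lost its call in 3 of the 6 fits that left out a library (0.19 to 0.23 in these 3, 0.19 to 0.31 over all 6). EPHB4, never called, reversed to -0.036 with no filter on low counts and ranged from -0.029 to 0.017 with a library left out, and EPHA4 ranged from -0.0019 to 0.87 there; EPHA4 could be fitted in 11 alternatives only, since its low counts failed the other filters. Among genes not called, the filter of at least 10 counts in every library reversed EPHA1 (0.022), YES1 (0.038), RHOA (0.012) and ITSN1 (0.027), brought MMP14 (0.14, adjusted p = 0.0348), RAC1 (0.11, adjusted p = 0.0473) and VAV2 (0.12, adjusted p = 0.0478) past the threshold, and shifted genes shared with the reported fit by 0.077 in the median. YES1 was 0.0055, 0.0058 and 0.0055 in the 3 FPKM fits, RAC1 was -0.012 with no filter and ranged from -7.4e-05 to 0.042 with a library left out, and EPHA10 ranged from -0.18 to 0.019 there. With limma on log2(FPKM + 1) or log2(FPKM + 0.1), 2 other family genes were called and higher in place of 4, since EPHA3 and EPHB6 failed the FPKM minimum of 1. Calls of some partners with small changes were lost: ANKS1A with DESeq2 (adjusted p = 0.0505), with the 10-count filter (0.25), without hypoxia replicate 2 (0.0891) or normoxia replicate 1 (0.128) and in the 3 FPKM fits; RASA1 with the 10-count filter (0.0515); ROCK1 with that filter, the 3 FPKM fits and without hypoxia or normoxia replicate 1; and PAK1 with no filter and in 5 of 6 fits that left out a library. RAC1 passed with limma on log2(FPKM + 1) with no filter (adjusted p = 0.0112), CHN1 with no filter and without hypoxia or normoxia replicate 3 (0.0165, 0.0172 and 0.022), and KALRN without normoxia replicate 3 (0.0443). Genes shared with the reported fit shifted by -0.041 in the median with no filter. In the 3 FPKM fits they shifted by 0.050, 0.048 and 0.044. Whether these shifts account for the reversals was not tested, nor were the causes of the other changes. All 72 alternatives of the pair ratios stayed on their side.

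Replicate numbers did not pair the libraries (correlations of deviations for equal numbers 0.018, -0.069 and 0.0012). With the replicate block 10875 genes were called in place of 11090, and the members gave 2.70 for EFNA1, 2.54 for EFNA3, 0.97 for EFNA4, 0.26 for EFNA5, 0.43 for EFNB1, -0.93 for EFNB2, -0.96 for EPHA2, 0.48 for EPHA4, -0.44 for EPHB2 and 0.0050 for EPHB4, with 5 higher and 3 lower. SDCBP and GRIP2 lost their calls under the block (adjusted p = 0.0848 and 0.0710). Both also lost them in edgeR with no filter on low counts (adjusted p = 0.221 and 0.0965). GRIP2 further lost its call with DESeq2 (adjusted p = 0.104) and with limma on log2(FPKM + 1) with no filter (adjusted p = 0.156).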

Other observations

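MMP2, a matrix protease, and CDK5R1, an activator of the kinase CDK5, both carried a Gene Ontology term naming ephrin and lay outside the partner list. They were chosen after their values were seen, as the largest rise and the largest fall among such genes outside the family. MMP2 rose by 2.71 on the log2 scale (SE 0.10, edgeR adjusted p = 2.55e-13), from a mean of 10.9 to 71.1 CPM, and CDK5R1 fell by 1.30 (SE 0.14, edgeR adjusted p = 1.59e-07), from 9.62 to 3.91 CPM. PTPN11, the tyrosine phosphatase SHP2, and RBPJ, the DNA-binding factor of Notch signalling, were also chosen after their values were seen, as abundant genes of that annotation that passed the test. PTPN11 fell by 0.75 (SE 0.05, edgeR adjusted p = 2.75e-10), from 348 to 208 CPM, and RBPJ rose by 0.90 (SE 0.06, edgeR adjusted p = 2.84e-10), from 80.9 to 151 CPM. EPHA1-AS1, annotated opposite EPHA1, had 8, 15 and 0 counts under hypoxia and 13, 11 and 9 under normoxia and did not pass the test.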
